A study of Homo sapiens with 4 samples.

Results

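The HOX cluster miRNAs are microRNAs whose hairpin genes lie within the clusters of HOX genes, which encode the homeodomain transcription factors that set position along the body axis. The 8 members were taken from the deposited table by name, out of 2039 mature miRNAs. They come from 6 hairpins in 4 clusters: miR-10a (both arms) from HOXB, miR-10b (both arms) from HOXD, miR-196b-5p from HOXA, miR-615 (both arms) from HOXC, and miR-196a-5p from 1 gene in HOXB and 1 in HOXC. Small RNA was sequenced from HFE-145, a line of immortalised epithelial cells from human stomach, in a vector group and a YAP5SA group of 2 samples each. YAP5SA is a form of the Hippo pathway effector YAP in which serines that inhibit it when phosphorylated are replaced by alanines. The sources used here do not give the promoter that drives it, whether each line was 1 clone, or whether the duplicates came from separate cultures. The p-values therefore measure the spread between these samples alone, and that spread may be technical.

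A miRNA is cut from its hairpin as a duplex of a 5p and a 3p arm, and usually one arm, the guide, is loaded into an Argonaute protein while the other is degraded. The guide finds mRNAs mainly through its seed, bases 2 to 8, and lowers their stability and translation. HOX cluster miRNAs are transcribed in the same direction as their neighbouring HOX genes, often from shared transcripts, and several of their known targets are HOX mRNAs.

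The mature sequences show which members can share targets. They are written 5′ to 3′ with the seed in capitals, as in the deposited table, and the 7 sequences found in RefSeq's GRCh38.p14 table were identical there; miR-10b-5p is named only.
hsa-miR-10a-5p: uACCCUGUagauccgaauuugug
hsa-miR-10a-3p: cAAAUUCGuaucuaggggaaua
hsa-miR-10b-3p: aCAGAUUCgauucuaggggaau
hsa-miR-196a-5p: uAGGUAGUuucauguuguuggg
hsa-miR-196b-5p: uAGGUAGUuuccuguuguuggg
hsa-miR-615-3p: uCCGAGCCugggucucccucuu
hsa-miR-615-5p: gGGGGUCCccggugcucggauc

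The guides miR-196a-5p and miR-196b-5p share their seed and are identical at 21 of 22 bases. In the deposited table miR-10a-5p and miR-10b-5p are identical at 22 of 23 bases, so a read with 1 error can be counted for the other miRNA of either pair. The remaining arms each have a seed of their own. The 5p arm of miR-10a is related to miR-99, miR-100 and miR-125, and the seed of miR-196 is that of let-7 moved by 1 base, as the guides of both relatives show.
hsa-miR-100-5p: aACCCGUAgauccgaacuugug
hsa-let-7a-5p: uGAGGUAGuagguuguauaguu

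MIR10A lies at chr17:48579838-48579947 on the minus strand of GRCh38, within introns of 6 HOXB3 transcripts and across an exon of 1 HOXB4 transcript in GENCODE 29. MIR615 lies at chr12:54033950-54034045 on the plus strand, in introns of HOXC5 and HOXC4. These hairpins gave the most abundant members, and both arms are shown in capitals.
MIR10A: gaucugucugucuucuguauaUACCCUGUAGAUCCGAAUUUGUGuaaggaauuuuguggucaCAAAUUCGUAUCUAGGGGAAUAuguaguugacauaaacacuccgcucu
MIR615: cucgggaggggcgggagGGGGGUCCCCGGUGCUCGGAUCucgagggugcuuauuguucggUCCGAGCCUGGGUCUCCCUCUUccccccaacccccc

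MIR10B lies at chr2:176150303-176150412 on the plus strand, in an intron of HOXD3 and 0.919 kb before HOXD4. MIR196B lies at chr7:27169480-27169563 on the minus strand, across an exon of 1 HOXA9 transcript and in introns of 2 others. MIR196A1 lies at chr17:48632490-48632559 on the minus strand, in an intron of a long HOXB7 transcript, and 52.6 kb before MIR10A in the direction of transcription. MIR196A2 lies at chr12:53991738-53991847 on the plus strand, in an intron of a HOXC6 transcript and 42.2 kb before MIR615. The hosts named are transcripts on the strand of the hairpin, and the map of HOX genes around the hairpins shows them.

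**Figure D1:**
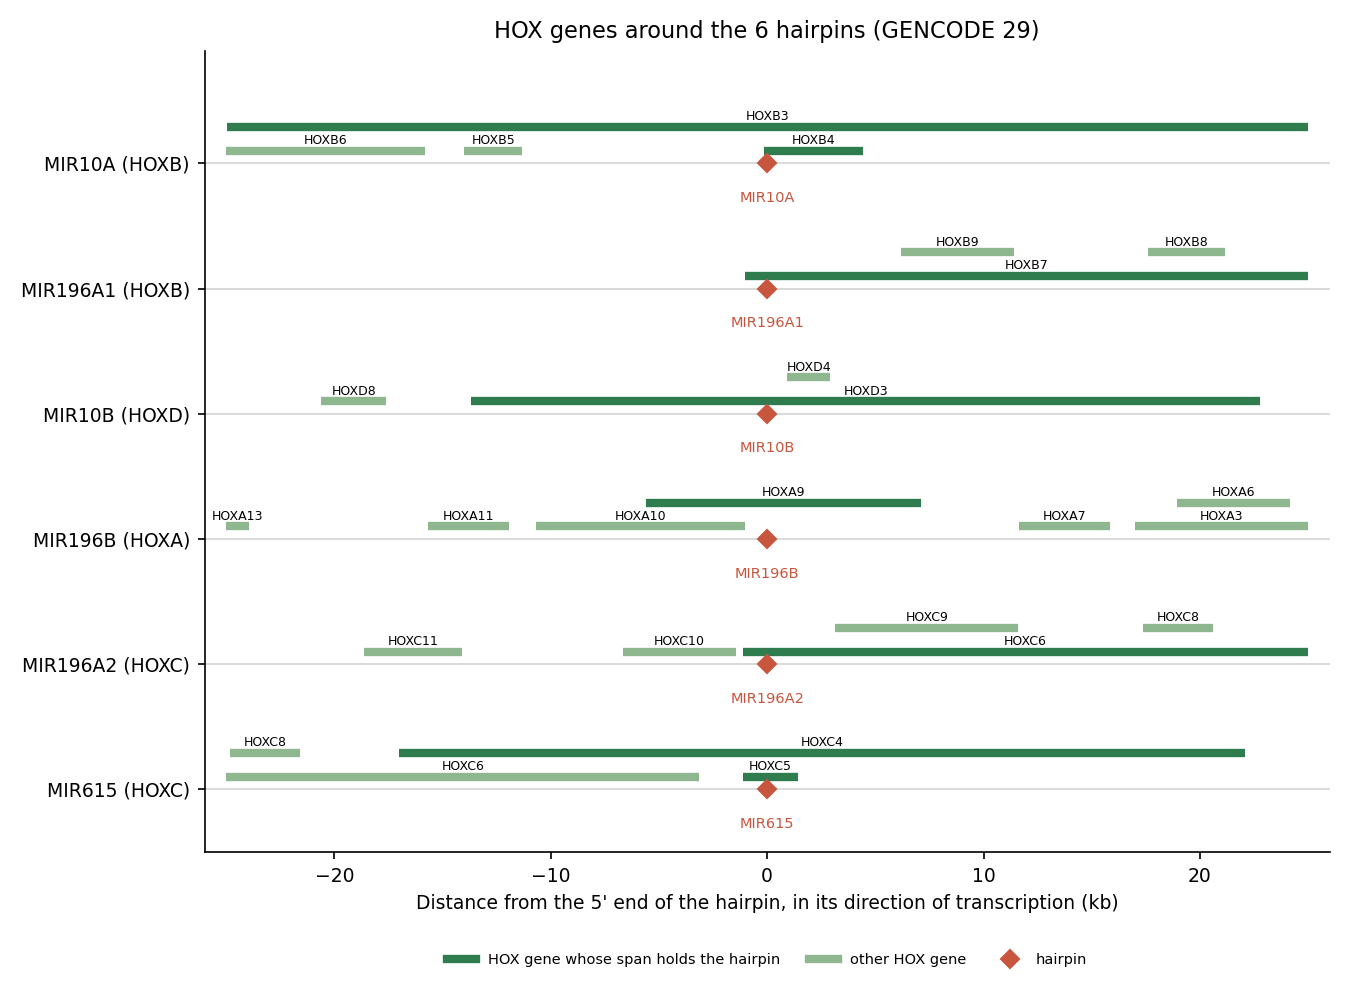
HOX protein-coding genes (bars, GENCODE 29) within 25 kb of the 6 hairpins (diamonds), with the distance in kb from the 5′ end of the hairpin along its direction of transcription on the x axis and 1 row per hairpin. Each hairpin lies within the span of at least 1 HOX gene, drawn in dark green.

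HOX mRNAs are among the known targets of these guides, and mRNA was not analysed here. HOXB8 holds the best known site, where miR-196 directs cleavage of the mRNA. In the HOXB8 3′ UTR of GENCODE 29, bases 411 to 432 pair with miR-196a-5p at 21 of 22 bases, with a G:U pair at the other (lower case). That G:U pair lies within the seed, so the site lacks a full Watson-Crick match to the seed.
HOXB8 site: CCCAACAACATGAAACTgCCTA

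For miR-10 the 7 letters that pair with the seed, ACAGGGT, were searched on the transcript strand of 1 3′ UTR per gene. They were found in 12.8% of 19133 genes, and in 6.71% of 10902 genes over the first 866 bases of UTRs at least that long. The site in HOXB3, the gene that hosts MIR10A and a target of miR-10 in zebrafish, is shown with Watson-Crick pairs in capitals and G:U pairs and unpaired bases in lower case.
HOXB3 site: tgacttaaCGtgaaaACAGGGTA

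A match in letters does not show that a site is used.

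Total counts ran from 136903 to 217235 per library, with the lowest in YAP5SA replicate 1. That library also stood apart in composition: miRNAs under a mean count of 20 held 10.5% of its counts, against 5.56% in YAP5SA replicate 2 and 3.41% and 3.15% in the vector replicates. The epithelial markers of the miR-200 family with miR-203a and miR-205-5p, 7 in all, were present in every library and summed to 29164 and 25669 CPM in the vector libraries and 12076 and 15114 CPM in the YAP5SA libraries. Levels are given in CPM, counts scaled to the same effective library size by TMM, a factor per library that aligns the bulk of miRNAs. The miRNAs of gut (4 listed), blood (6), fibroblast and smooth muscle (5), endothelial (2) and skeletal muscle cells (4) were summed too. Each of these sums was between 26.4 and 602 CPM. In the skeletal muscle list miR-206 was at 0 counts in 3 libraries and miR-1 in 1. The blood, the fibroblast and smooth muscle, and the endothelial list each had 1 miRNA at 0 counts in at least 1 library. In RNA from bulk cells, fewer cells that make a miRNA and less of it per cell cannot be told apart.

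The HOX cluster miRNAs held a 2.08% share of the reads of vector replicate 1 (95% interval 2.02 to 2.14, exact binomial) and 2.005% in vector replicate 2 (1.94 to 2.07). In the YAP5SA libraries they made up 1.06% (1.01 to 1.12) and 1.10% (1.05 to 1.14). Both YAP5SA libraries were thus lower. A share uses the library total as its scale, so it depends on what else each library holds. Without miR-372, the most abundant miRNA in each library, the shares were 2.91% and 2.83% in the vector libraries. In the YAP5SA libraries they were then 1.499% and 1.69%, still lower. The intervals given cover counting error only, since reads were counted without molecular identifiers. miR-10a-5p alone gave 80.9% to 86.8% of the members' counts in each library.

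The members differed widely in level. In vector replicate 1, miR-10a-5p was the eighth most abundant miRNA of the whole table, and in the other libraries it ranked ninth, 17th and 14th. By mean CPM over the 4 libraries the order was miR-10a-5p, then miR-615-3p, miR-10a-3p and miR-10b-5p, then the 4 rare members. miR-10a-5p and miR-615-3p kept the first 2 places in all 4 libraries with no overlap between them. miR-10a-3p and miR-10b-5p did not overlap in the vector libraries but did in the YAP5SA libraries, and in YAP5SA replicate 1 the rare miR-196b-5p stood above miR-10b-5p. The members are 22 or 23 bases long and each read counts once, but adapter ligation favours some sequences, so levels of different miRNAs compare only roughly.

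**Figure D2:**
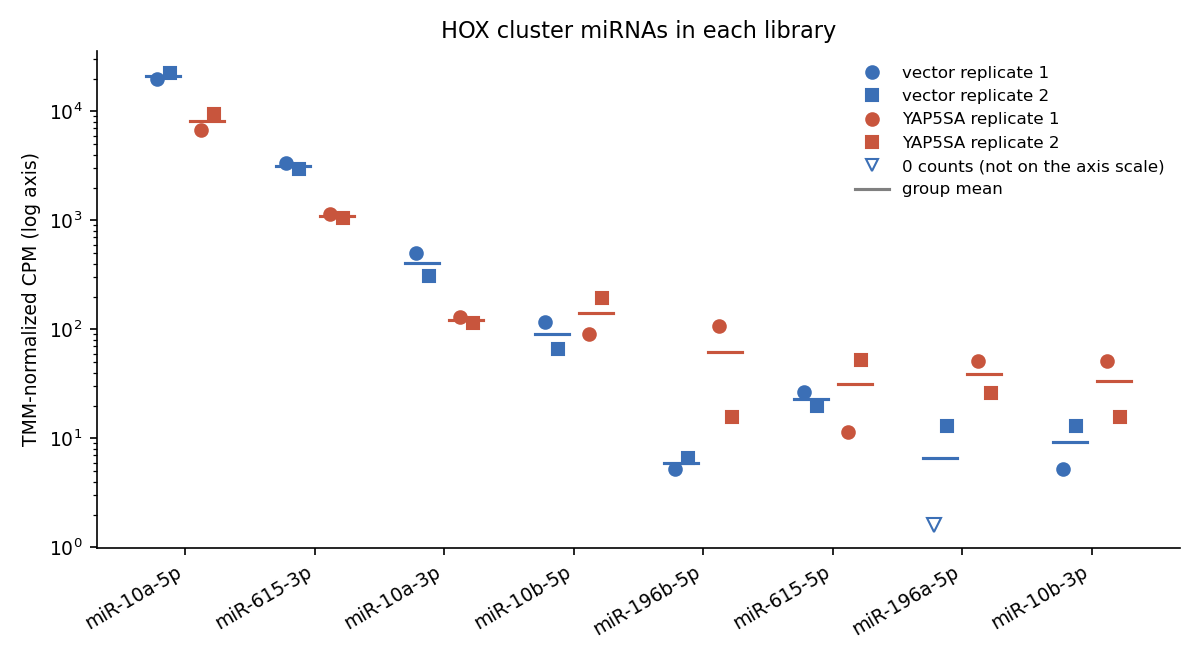
TMM-normalized CPM (log axis) of the 8 HOX cluster miRNAs in the 4 libraries, with circles for replicate 1, squares for replicate 2 and lines for group means; the open triangle marks 0 counts and has no height of its own. Both YAP5SA libraries lie below both vector libraries for miR-10a-5p, miR-615-3p and miR-10a-3p, and the other members are at most 194 CPM.

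Comparing YAP5SA with vector cells addresses which miRNAs differ when an active form of YAP is present in gastric epithelial cells. miR-10a-5p, its partner arm miR-10a-3p and miR-615-3p were lower in YAP5SA cells, by 2.60-fold, 3.32-fold and 2.89-fold. miR-10b-5p, the near-identical paralog from HOXD, was not called in either direction. Of the 8 members, 4 passed the filter on low counts and 3 of these were called lower by edgeR's quasi-likelihood test with Benjamini-Hochberg adjustment over 602 miRNAs, at an adjusted p under 0.05; 3.49% of all miRNAs tested were called lower, 11.8% higher and 15.3% in either direction. In CPM the same 3 were lower in both YAP5SA libraries than in both vector libraries, as were 26.6% of all miRNAs tested, while 33.9% were higher in both and no tested member was. Over all miRNAs tested the median log2 change was 0.11. Most of those with a mean of 1000 CPM or more, miR-10a-5p and miR-615-3p among them, had values under 0. Of the 7 epithelial markers 6 were tested, with a median log2 fold change of -1.37; edgeR called 4 of them lower, DESeq2 3 and limma-voom 1. The seventh, miR-205-5p, had 26.4 and 19.7 CPM in vector against 34.1 and 73.3 CPM in YAP5SA cells. The part of these markers in the lower HOX cluster miRNAs was not tested.

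hsa-miR-10a-5p, the guide of the HOXB hairpin and a known regulator of HOX mRNAs, had 3754 and 3399 counts in vector cells against 1180 and 1823 in YAP5SA cells, in the order of the replicates. In CPM these were 19834 and 22342 against 6703 and 9541. Both YAP5SA libraries lay below both vector libraries, by more than the spread within either group. The group means were 21088 ± 1774 and 8122 ± 2007 CPM (SD, n = 2). The log2 change was -1.38 with a standard error of 0.29, at an adjusted p of 0.030 in edgeR. As a share of all counts it went from 1.73% and 1.74% to 0.862% and 0.9497%.

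hsa-miR-10a-3p, the other arm of the same hairpin, had 96 and 47 counts in vector against 23 and 22 in YAP5SA cells, or 507 and 309 CPM against 131 and 115 CPM. The vector libraries differed from each other more than the YAP5SA libraries did, and the groups did not overlap. Its log2 change was -1.73, with a standard error of 0.44 and an adjusted p of 0.038 in edgeR, and 0.997% of all miRNAs tested had a lower value.

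hsa-miR-615-3p, the guide of the HOXC hairpin, had 631 and 451 counts against 200 and 199, or 3334 and 2965 CPM in vector against 1136 and 1041 CPM in YAP5SA cells. In CPM the replicates lay close together in both groups and the groups were far apart. As a share of all counts it went from 0.290% and 0.231% to 0.146% and 0.104%, with more spread between replicates and no overlap between groups. Its log2 change was -1.53, with a standard error of 0.27, and its adjusted p in edgeR, 0.023, was the smallest among the 4 members tested.

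hsa-miR-10b-5p, known from invasive breast cancer cells, had 22 and 10 counts in vector against 16 and 37 in YAP5SA cells, or 116 and 65.7 CPM against 90.9 and 194 CPM. The groups overlapped, with YAP5SA replicate 1 between the vector libraries. Its log2 change was 0.63 with a standard error of 0.57, at an adjusted p of 0.50 in edgeR, so no difference was detectable at this depth. Without YAP5SA replicate 2 the log2 fold change was -0.59, and without vector replicate 2 it was -0.02, so its direction rested on single libraries. Its counts were 0.586% and 0.294% of those of miR-10a-5p in the vector libraries and 1.36% and 2.03% in the YAP5SA libraries, and how many of them are misassigned reads of miR-10a-5p was not tested.

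**Figure D3:**
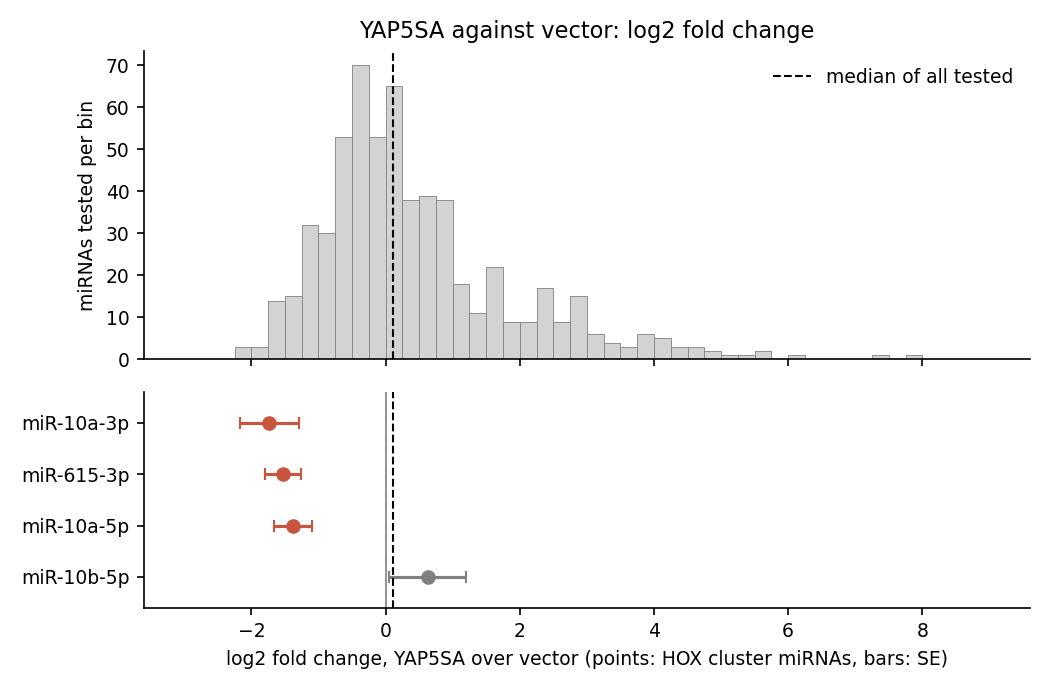
Upper panel: number of miRNAs tested (y axis) by log2 fold change of YAP5SA over vector (x axis), with a dashed line at the median of 0.11. Lower panel: the 4 HOX cluster miRNAs tested, with SE bars, red where called; miR-10a-3p, miR-615-3p and miR-10a-5p lie at -1.73, -1.53 and -1.38 in the lower tail, and miR-10b-5p at 0.63 lies near the middle.

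These calls depended on the libraries and on the filter. Without vector replicate 1 or vector replicate 2, edgeR called 0 members lower, with adjusted p = 0.52 and 0.53 for miR-10a-5p, whose adjusted p ran from 3.2e-09 to 0.53 over its 17 alternatives. Those 2 fits called 0 miRNAs lower in the whole table, and without YAP5SA replicate 1 or 2 the 3 members were called lower. DESeq2 also called these 3 lower, and limma-voom 2 of them. Against library totals alone, where the median of all miRNAs was 0.61, the log2 fold changes of miR-10a-5p and miR-615-3p were -0.89 and -1.01 and both passed, and that of miR-10a-3p was -1.23 and did not. With no filter, miR-10a-5p did not pass in edgeR (adjusted p = 0.096). It also did not pass with the filter at a mean of 10 CPM (adjusted p = 0.14 in edgeR) or 100 CPM (adjusted p = 0.062 in edgeR).

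The other 4 members were left out by the filter on low counts. hsa-miR-10b-3p, the partner arm of miR-10b-5p, had 1 and 2 counts in vector against 9 and 3 in YAP5SA cells. hsa-miR-196a-5p, encoded in both HOXB and HOXC, had 0 and 2 counts against 9 and 5, where the 0 allows up to 15.9 CPM in vector replicate 1. hsa-miR-196b-5p, the HOXA member, which is known from HOXA-driven leukaemias, had 1 and 1 counts against 19 and 3. These 3 were higher in both YAP5SA libraries than in both vector libraries, as were 34.4% of the 1437 miRNAs left out by the filter.

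The ratio of pooled counts, YAP5SA over vector per effective library size, was 10.2 for miR-196b-5p (exact binomial 95% interval 2.51 to 89.7), 6.51 for miR-196a-5p (1.495 to 59.0) and 3.72 for miR-10b-3p (1.004 to 20.5). Replicate spread is not in these intervals, and miR-196b-5p was at 108 CPM in YAP5SA replicate 1 and 15.7 CPM in YAP5SA replicate 2. The higher value of each of the 3 was in YAP5SA replicate 1, the library with the largest share of counts in rare miRNAs, and the part of that share in these ratios was not tested. hsa-miR-615-5p, the partner arm of miR-615-3p, had 5 and 3 counts against 2 and 10, a ratio of 1.39 (0.524 to 3.93), and its groups overlapped.

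Summed by cluster, HOXB (miR-10a) had 21496 ± 1634 CPM in vector and 8245 ± 1996 CPM in YAP5SA cells (SD, n = 2). HOXC (miR-615) had 3172 ± 266 and 1121 ± 37.9 CPM in the same order. HOXD (miR-10b) had 100.2 ± 30.2 and 176 ± 47.6 CPM, and HOXA (miR-196b) 5.93 ± 0.91 and 61.8 ± 65.2 CPM. miR-196a-5p, which cannot be placed in HOXB or HOXC from its sequence, had 6.57 ± 9.30 and 38.6 ± 17.6 CPM. Nearly all HOX cluster reads thus came from HOXB and HOXC in both groups.

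Ratios between members within 1 library do not depend on scaling, and 7 were compared. miR-10a-5p had 171 and 340 reads per read of miR-10b-5p in vector cells against 73.8 and 49.3 in YAP5SA cells. The groups did not overlap, and the log2 ratio (0.5 added to each count) differed by -1.98, from 7.86 ± 0.68 to 5.88 ± 0.39 (SD, n = 2); from the authors' log2 values the difference was -0.88. The exact two-sided permutation p was 0.333, the smallest that 2 against 2 libraries allow, and 0.778 after Benjamini-Hochberg adjustment, so no ratio could pass a threshold of 0.05.

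The arm ratio of miR-10a overlapped between the groups, with 39.1 and 72.3 reads of miR-10a-5p per read of miR-10a-3p in vector against 51.3 and 82.9 in YAP5SA cells (log2 difference 0.27, exact permutation p = 0.667). The ratio of miR-10a-5p to miR-615-3p, from different chromosomes, also overlapped, with 5.95 and 7.54 in vector against 5.90 and 9.16 in YAP5SA cells (log2 difference 0.13, exact permutation p = 1). For miR-615-3p to miR-615-5p the values were 126 and 150 against 100 and 19.9, with a log2 difference of -1.64 that rests on 20 reads of miR-615-5p in all. It was -0.60 without YAP5SA replicate 2, -2.68 without YAP5SA replicate 1 and -0.36 on the authors' log2 values. For miR-10a-5p to miR-196a-5p the groups did not overlap, but miR-196a-5p was at 0 counts in vector replicate 1, so the size of the log2 difference depends on the count added. It was -3.98 with 0.5 added, -2.92 with 2 added, -2.74 without vector replicate 1 and -2.10 on the authors' log2 values. The log2 difference was -0.88 for the arms of miR-10b and 0.23 for miR-196a-5p to miR-196b-5p, whose groups did.

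**Figure D4:**
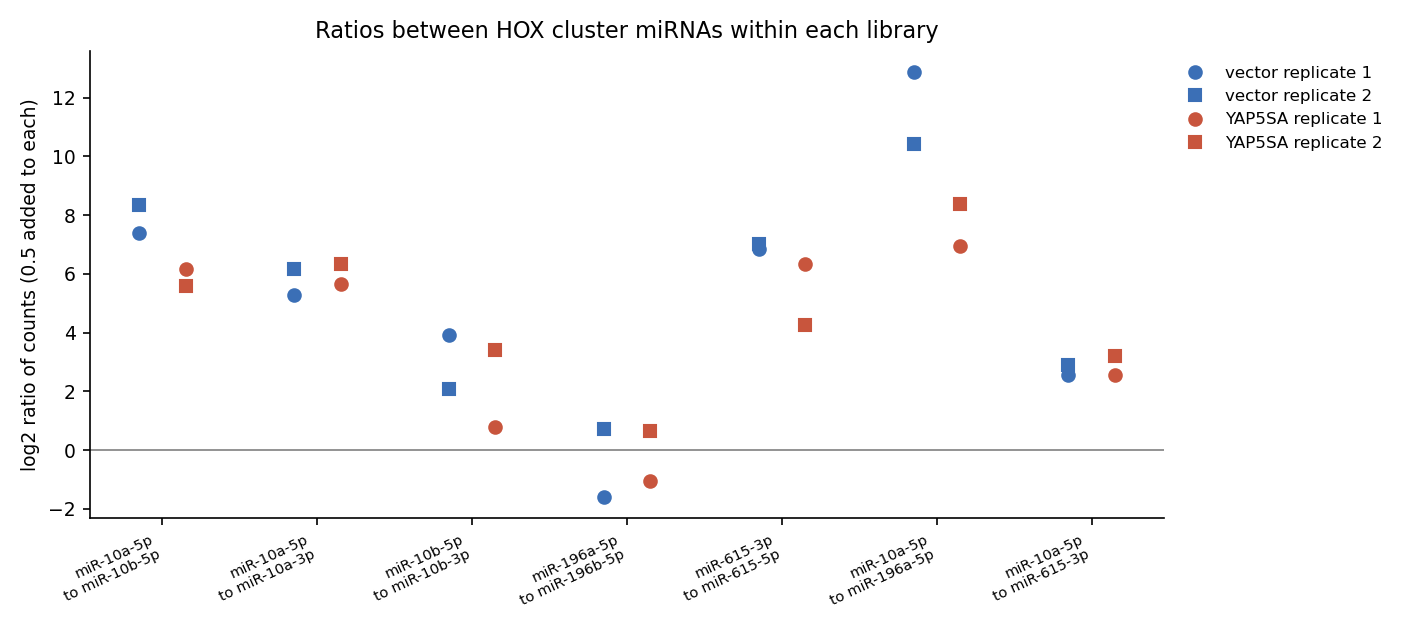
log2 ratio of counts within each library (y axis, 0.5 added to each count) for 7 pairs of HOX cluster miRNAs (x axis), with circles for replicate 1 and squares for replicate 2. The groups do not overlap for miR-10a-5p to miR-10b-5p, miR-615-3p to miR-615-5p and miR-10a-5p to miR-196a-5p, and they overlap for the other 4 pairs.

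Relatives of these miRNAs outside the HOX clusters were compared by a list. The 5 guides of miR-99, miR-100 and miR-125, which share the ancestry of miR-10, all had log2 fold changes under 0, with a median of -0.996, where 273 of all 602 miRNAs tested were under 0. By edgeR 0 were called, with an unadjusted p under 0.05 for 4, and 0 were called lower by DESeq2 and limma-voom. miR-100-5p, the most abundant of them, came nearest, at a log2 change of -1.06 and an adjusted p of 0.0504 in edgeR. miR-125a-5p, the next most abundant, was at -0.66 (adjusted p = 0.20 in edgeR). Of the 9 let-7 guides, known for restraining growth, 8 had log2 fold changes under 0 with a median of -0.59. By edgeR 0 were called, with an unadjusted p under 0.05 for 3, and 0 were called lower by DESeq2 and limma-voom; of all miRNAs tested, 200 had such a p. The most abundant, let-7f-5p and let-7i-5p, had -0.59 and -0.93. Most miRNAs tested with a mean of 1000 CPM or more were also under 0, so this direction was not particular to either list.

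By pattern over the 4 libraries, the miRNAs nearest to miR-10a-5p among 310 candidates (mean CPM of 100 or more) were miR-107, miR-27b-3p and miR-100-5p. The measure was the Euclidean distance between centred log2 CPM, which was 0.17, 0.27 and 0.32 for them against a median of 1.37 over the candidates. miR-615-3p lay at 0.53, miR-10a-3p at 0.85 and miR-10b-5p at 2.16. miR-107 was at 243 and 296 CPM in vector against 96.6 and 126 CPM in YAP5SA cells, and its log2 change of -1.27 did not pass (adjusted p = 0.085 in edgeR). miR-27b-3p, at -1.20, did (adjusted p = 0.034 in edgeR). The most abundant miRNA of the table, miR-372, was at -0.28 (adjusted p = 0.62 in edgeR).

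In the authors' deposited table, on their own normalized values, the fold change of YAP5SA over vector was 0.599 for miR-10a-5p (p = 0.018), 0.477 for miR-615-3p (p = 0.019) and 0.313 for miR-10a-3p (p = 0.11). In the authors' deposited table the fold change was 1.21 for miR-10b-5p (p = 0.79), 3.39 for miR-196b-5p (p = 0.34), 2.13 for miR-196a-5p (p = 0.13), 1.41 for miR-10b-3p (p = 0.32) and 0.836 for miR-615-5p (p = 0.92). These p-values are without adjustment, and the share of all miRNAs with a p under 0.05 there was not counted.

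**Figure D5:**
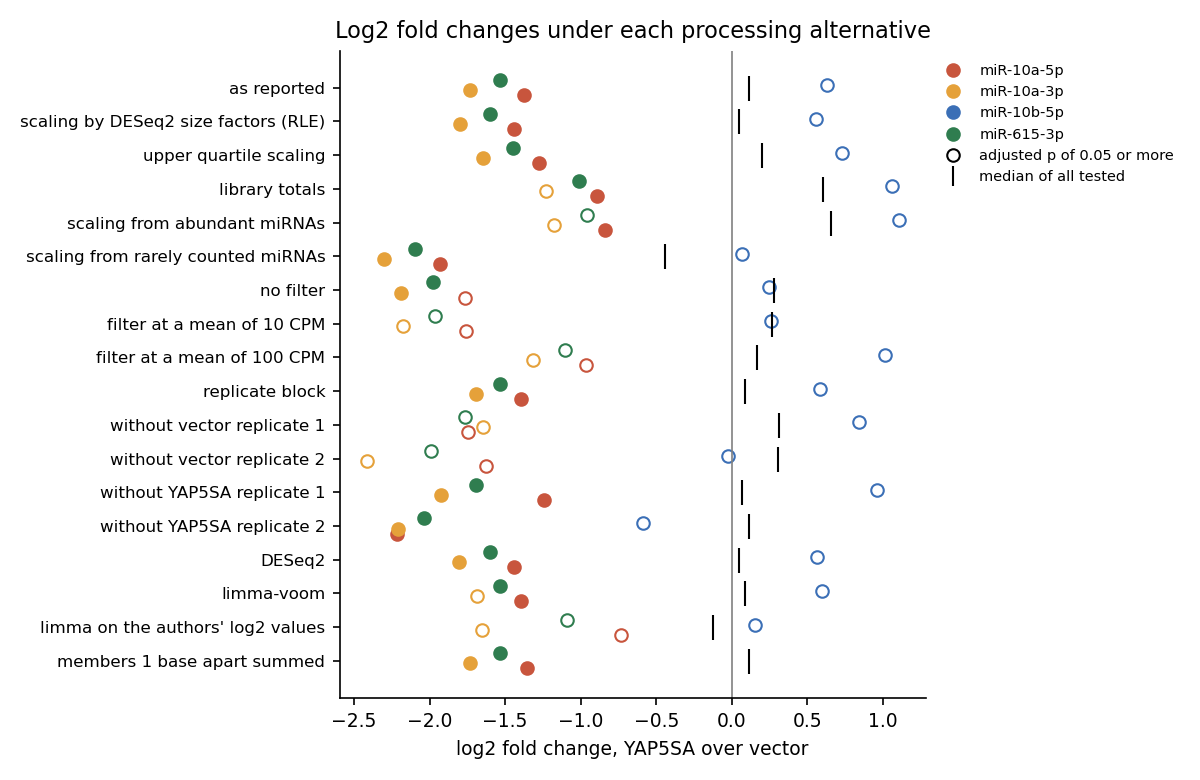
log2 fold change of YAP5SA over vector (x axis) for the 4 HOX cluster miRNAs tested, as reported and under 17 alternatives (y axis; 16 for miR-10b-5p); filled points were called, open points were not, and the black tick is the median of all miRNAs tested. miR-10a-5p, miR-10a-3p and miR-615-3p lie below 0 and below the median in each setting drawn, while miR-10b-5p crosses 0 without vector replicate 2 and without YAP5SA replicate 2.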

How the data were processed

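Small RNA libraries were made from total RNA of 4 HFE-145 samples with an NEB kit, per the labels' protocols. The authors deposited raw read counts per mature miRNA, which are whole numbers without normalization, and log2 values of normalized read counts whose method the sources used here do not give. Their fold change is a ratio of YAP5SA over vector, per the file headers, and the test behind their deposited p-value, the aligner and the miRNA annotation are likewise not stated. FastQC and hg19 come from the submitters' processing notes. The table held 2039 miRNAs, and 3 lines without a name, which hold no counts, were left out.

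Groups and replicate numbers came from titles. The test was edgeR's quasi-likelihood test (version 4.0.16, R 4.3.3) on the counts with TMM scaling and edgeR's default filter, which kept 602 miRNAs and left out 1437. Adjustment was by Benjamini-Hochberg with a threshold of 0.05. Standard errors were obtained from the F statistic and the log2 fold change. The fit was tested on simulated data. DESeq2 1.42.0 and limma 3.58.1 were alternatives, beside other scalings, filters, a replicate block and each sample left out. The members, lists, tests and alternatives were chosen with earlier results of these data known. Named outside the members were the 3 nearest in pattern, up to 2 abundant or any called miRNAs per list, and the most abundant miRNA. Ratios and intervals used Python 3.11.15 and SciPy 1.17.1. Counts of seed matches among HOX genes are not reported here. Positions are on GRCh38, from RefSeq and GENCODE 29.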

Additional observations from a re-analysis of the deposited data

How the results depend on the processing

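miR-10a-5p, miR-10a-3p and miR-615-3p had log2 fold changes under 0 in all 17 alternatives, from -2.21 to -0.73, -2.42 to -1.18 and -2.10 to -0.96, and stayed past the threshold in 11, 9 and 11; the cause of the lost calls was not tested. Called lower were 3 HOX cluster miRNAs as reported, 2 with no filter, 2 with library totals, 2 with limma-voom and 1 with scaling from abundant miRNAs. The number was 0 when the filter was a mean of 10 CPM (1791 miRNAs tested), 0 when it was 100 CPM (315 tested) and 0 on the authors' log2 values. Called higher were 0 as reported and 0 to 1 with a sample left out: without YAP5SA replicate 2, miR-196b-5p passed on the 19 counts of YAP5SA replicate 1. In fits with a sample left out, the lone sample is assumed to vary like the other group, and more miRNAs pass the filter (1042 and 1037 without vector replicate 1 and 2, 679 and 949 without YAP5SA replicate 1 and 2). miR-10b-5p ran from -0.59 (without YAP5SA replicate 2) to 0.96 with a sample left out, and was -0.02 without vector replicate 2.

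Over all miRNAs, 71 were higher and 21 lower as reported. Library totals gave 147 and 12, scaling from abundant miRNAs 149 and 10 (median log2 fold change 0.66), and scaling from rarely counted miRNAs 62 and 90 (median -0.44). The counts were 34 and 14 with no filter, 19 and 1 with the filter at 10 CPM, 25 and 1 at 100 CPM, 36 and 18 with DESeq2, 21 and 10 with limma-voom, and 9 and 1 on the authors' log2 values. Leaving out a sample gave 1 to 124 higher and 0 to 159 lower. The replicate numbers do not pair the samples by the labels, and same-numbered deviations had a correlation of 0.016 over 602 miRNAs; with a replicate block 102 were higher and 34 lower, and the same 3 HOX cluster miRNAs were called.

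Log2 ratios that changed sign were miR-10a-5p to miR-10a-3p, from 0.27 to between -0.17 and 0.71 with a sample left out; miR-10a-5p to miR-615-3p, from 0.13 to between -0.18 and 0.45, and -0.014 for replicate 1 alone in the replicate block; miR-10b-5p to miR-10b-3p, from -0.88 to between -2.19 and 0.43, and 1.35 for replicate 2 alone in the block; and miR-196a-5p to miR-196b-5p, from 0.23 to between -0.93 and 1.39, -0.085 for replicate 2 alone in the block, -0.14 with 2 added to each count and -0.054 on the authors' log2 values. The depth of these libraries leaves the 4 rare members at 19 counts or fewer in each library.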

Other observations

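With no filter, where 2034 miRNAs were tested, edgeR's adjusted p was 0.17 for miR-196b-5p (log2 fold change 2.71), 0.37 for miR-196a-5p (2.10), 0.58 for miR-10b-3p (1.34) and 0.97 for miR-615-5p (0.09), so none of the 4 rare members passed. Of the 3 other miRNAs of the table that lie inside the HOX clusters, the arms miR-196a-3p and miR-196b-3p had 1 to 4 counts in each library. The third, miR-3185 from HOXB, had 7 and 2 counts in vector against 6 and 15 in YAP5SA cells, and its groups overlapped.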
